A study of Mus musculus with 10 samples.

Results

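The unfolded protein response and the integrated stress response were followed through 40 genes in mouse lens: 9 stress sensors and transcription factors, 10 targets of the transcription factor ATF4, 12 chaperones and cochaperones of the endoplasmic reticulum (ER), 4 protein disulphide isomerases and 5 genes of ER-associated degradation and protein translocation. They were chosen by name as known genes of these responses, with earlier results of these data known. Each was represented by the brightest probe set that carried its symbol alone, by mean signal over all arrays. All 40, of 18193 genes named on the array, were present and all 40 passed the filter on low signal. The samples were whole lenses, wild type (WT) or Klf4-conditional null (Klf4CN), at embryonic day 16.5 (E16.5) or postnatal day 56 (PN56), profiled on Affymetrix mouse 430 2 arrays. Each genotype had 3 arrays at E16.5, each from the lenses of 5 embryos, and 2 at PN56, each from the lenses of 3 young adults. The preparations were independent, and the labels name neither the Cre driver nor the promoter behind the deletion.

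Misfolded protein in the ER engages the sensors PERK (gene Eif2ak3), IRE1 (Ern1) and ATF6. PERK and its related kinases phosphorylate the initiation factor eIF2, which lowers protein synthesis overall while the mRNA of Atf4 is translated more, and ATF4 then drives genes of amino acid synthesis and stress adaptation; IRE1 splices Xbp1 mRNA, and XBP1 and ATF6 drive chaperones and degradation factors of the ER. Lens fibre cells make crystallins in very large amounts and lose their organelles, the ER included, as they mature, and misfolded or mutant proteins expressed in the lens are known to engage the unfolded protein response.

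The deposited signals are linear intensities that had been scaled so that the mean of each array, after trimming 2% at each end, was 500. Median signals were between 63.0 and 76.9 at E16.5 and between 91.0 and 108.6 at PN56. Log2 signals of arrays within a group correlated at 0.952 to 0.981 across genes. All 10 lens markers examined were above the signal filter. The signal of Klf4 itself was no lower where the label is Klf4CN. At PN56 it was 185 ± 40.3 in WT (SD, n = 2) and 717 ± 20.9 in Klf4CN (SD, n = 2), a log2 difference of 1.88 (limma adjusted p = 0.0041). Whether the probe set is inside the deletion is not stated in the labels, and if it is not, its signal does not check the genotype. Directions are therefore given for lenses as labelled. Differences below are of log2(signal + 16), which understates the change of dim genes, and a gene was called at a limma adjusted p under 0.05 over 13440 genes. In whole lens RNA, fewer cells of a type and less RNA per cell cannot be told apart.

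In the embryonic lens none of the 40 genes passed the test between genotypes. The count was 0 of 40, where 0.00744% of all genes tested were called by limma. Without adjustment 2 of 40 had a limma p under 0.05, Xbp1 at a log2 difference of 0.21 and Pdia6 at -0.17, and so did 606 of all 13440 genes. The 40 differences, lenses labelled Klf4CN minus WT, had a median of 0.01, and 22 lay above 0. They ran from -0.60 for Chac1 to 0.38 for Trib3, with SEs between 0.08 and 0.44. The genotypes did not overlap in 7 of the 40, against 11.8% of all genes. These 7 were Atf6, Xbp1, Atf4, Calr, Sdf2l1, Pdia6 and Edem1, and the largest difference of the 7 was that of Sdf2l1, a cochaperone of the ER, at 456 ± 14.1 in WT (SD, n = 3) and 601 ± 105 in Klf4CN (SD, n = 3), a log2 difference of 0.37.

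In the adult lens 12 of the 40 genes passed the test. Atf4, Atf5, Trib3, Asns, Canx, Sdf2l1, Dnajb9, Edem1 and Sec61b were higher in lenses labelled Klf4CN, 9 of 40 where 6.04% of all genes tested were called higher. Hspa5, Creld2 and Pdia6 were lower, 3 of 40 where 6.98% of all genes were called lower. The median difference over the 40 genes was 0.13, beside -0.06 over all genes tested, and 24 of 40 lay above 0. The genotypes did not overlap in 28 of the 40, against 50.8% of all genes. Groups of 2 arrays separate more easily than groups of 3, so these shares are not comparable with those at E16.5. Bright genes passed more often than dim ones: of 961 genes with a mean signal of at least 5000, 17.9% were called higher and 13.3% lower, and 12 of the 40 stress response genes are in that class, with 3 called higher and 2 lower. Among 3358 genes with a mean signal from 1000 up to 5000, 9.86% were called higher and 11.6% lower, and of the 17 stress response genes there 3 were higher and 1 was lower. Among the 9121 dimmer genes 3.39% were called higher and 4.59% lower, and of the 11 stress response genes there 3 were higher and 0 lower.

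**Figure D1:**
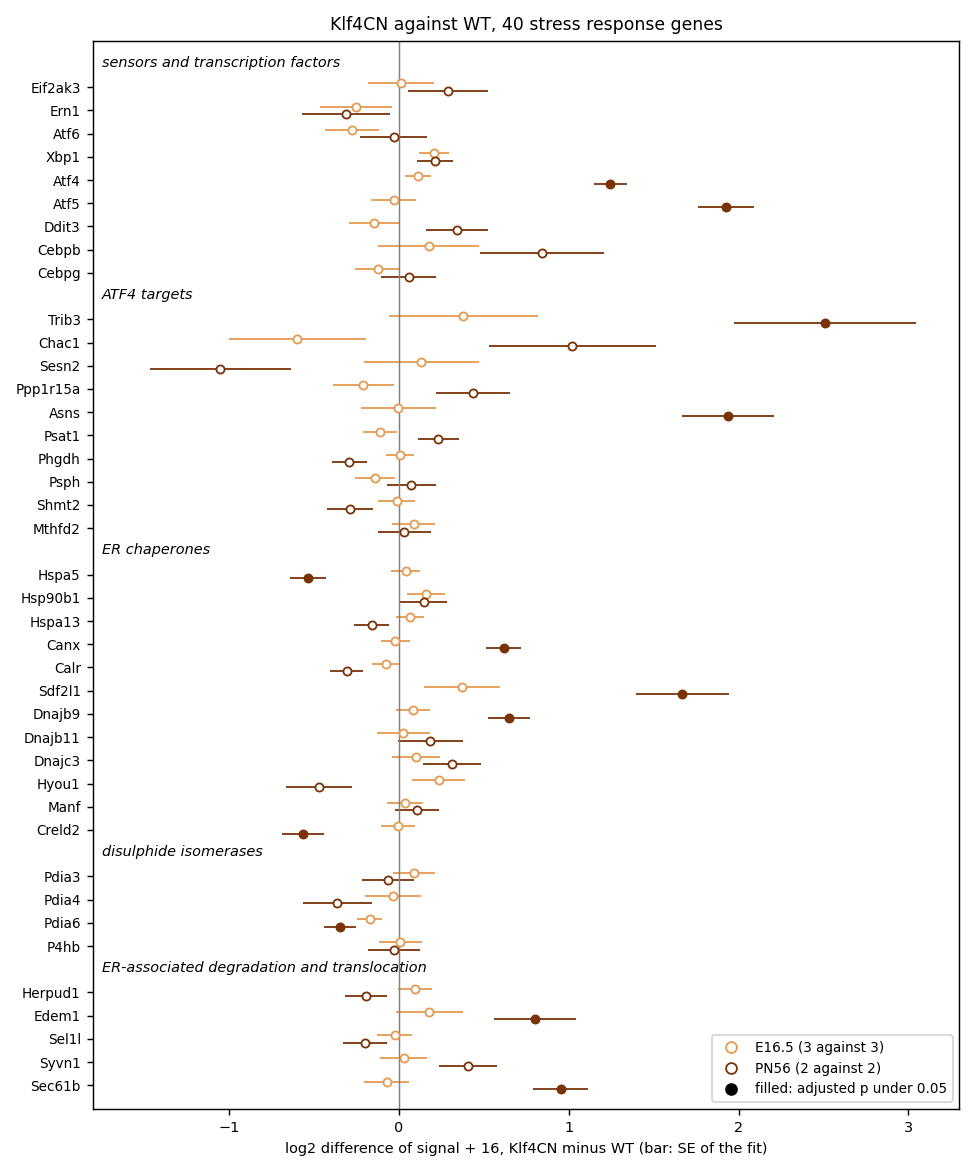
Log2 difference of signal + 16, Klf4CN minus WT, for each of the 40 genes by role, at E16.5 (3 arrays against 3) and PN56 (2 against 2); bars are SEs of the fit and filled points have a limma adjusted p under 0.05. No E16.5 point is filled, and the filled PN56 points run from -0.57 (Creld2) to 2.51 (Trib3).

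On the offset log2 scale used here, the 3 largest differences at PN56 belonged to Trib3, Asns and Atf5, all of the ATF4 arm. Sdf2l1, an ER chaperone gene, came next at 1.67. Its PN56 means were 51.4 in WT and 191.7 in Klf4CN. That scale understates the change of dim genes, so the order of these genes may depend on it. Of the 10 listed ATF4 targets, 8 did not pass the test at PN56. Atf4 encodes the transcription factor made from an mRNA whose translation increases when eIF2 is phosphorylated. Its signal at PN56 was 5032 and 4734 in the WT samples and 10910 and 12310 in those labelled Klf4CN. At E16.5 it was 6720, 6430 and 6762 in WT and 7376, 7122 and 7009 in Klf4CN. The adult Klf4CN samples were the highest of all 10 and the adult WT samples the lowest. Atf4 rose by a log2 difference of 1.25 ± 0.10 (SE; limma adjusted p = 1.843e-05), 2.37-fold, and another probe set of Atf4, tested among all probe sets, gave 1.25 (limma adjusted p = 0.0035).

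Atf5 encodes a related factor whose mRNA is also translated under eIF2 phosphorylation. Its signal was 552 and 820 in adult WT and 2807 and 2419 in adult Klf4CN lenses. At E16.5 it lay between 2024 and 2288 in all 6 samples. Adult WT was thus apart from the other groups and adult Klf4CN was slightly above the embryonic range. The difference at PN56 was 1.93 ± 0.16 (SE; limma adjusted p = 3.88e-05), a fold of 3.81.

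The other sensors and transcription factors did not pass at PN56, so the count for this class was 2 higher and 0 lower of 9. Over all genes tested 6.04% were higher and 6.98% lower. The median difference of the class was 0.29. Ddit3, which encodes the proapoptotic factor CHOP, had signals of 1448 and 1210 in WT and 1625 and 1741 in Klf4CN lenses; the groups did not overlap, and the difference was 0.34 (limma adjusted p = 0.238). Cebpb, a C/EBP family factor, had 161 and 264 in WT and 527 and 277 in Klf4CN, a difference of 0.84 carried mostly by 1 Klf4CN sample (limma adjusted p = 0.153). Another, dimmer probe set of Cebpb gave -0.47 (limma adjusted p = 0.728). Xbp1 had 7672 and 8078 in WT and 9964 and 8342 in Klf4CN, a difference of 0.21 (limma adjusted p = 0.212). Other probe sets of Xbp1 gave 0.01, -0.18 and -0.53, none past the test. Its probe sets measure total mRNA here, and splicing by IRE1 was not measured. Phosphorylation of eIF2 and cleavage of ATF6 were not measured either. Eif2ak3 differed by 0.29, Ern1 by -0.31, Atf6 by -0.03 and Cebpg, an ATF4 partner, by 0.06, with limma adjusted p-values from 0.464 to 0.935 and overlapping groups in each. Other tested probe sets of Ern1 gave 0.51 and 0.15 and those of Atf6 0.57 and 0.39, none past the test.

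Of the 10 ATF4 targets 2 were higher and 0 lower at PN56, beside 6.04% and 6.98% of all genes. Their median difference was 0.15. Asns, asparagine synthetase, had signals of 428 and 180 in adult WT lenses and 1061 and 1172 in those labelled Klf4CN. At E16.5 all 6 samples lay between 2442 and 2889. The genotypes did not overlap at PN56, and both were below every embryonic sample. The difference was 1.94 ± 0.27 (SE; limma adjusted p = 0.000972), a fold of 3.83, and another probe set gave 1.66 (limma adjusted p = 0.0012).

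Trib3, a pseudokinase that binds ATF4 and CHOP, had signals of 12.5 and 15.8 in adult WT and 213 and 112 in adult Klf4CN lenses. At E16.5 it ranged from 24.7 to 80.8 in WT and from 47.8 to 84.8 in Klf4CN. Only the adult Klf4CN samples exceeded 100, and adult WT was below all others. The difference was 2.51 ± 0.54 (SE; limma adjusted p = 0.0103). Because the WT signals were below the offset of 16, its size depended on that offset and ran from 1.50 to 3.37 over the alternatives, and without Klf4CN sample 1 at PN56 the call was lost (2.09, limma adjusted p = 0.0558).

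The promoter of Asns is shown with those of Chac1 and Herpud1 because their RefSeq windows (GRCm38.p6, 250 bases before to 50 after each start) held, before the start, the letters TGATGNAA, the core of the amino acid response element that ATF4 and C/EBP dimers bind. Capitals mark the match, on either strand.
Asns: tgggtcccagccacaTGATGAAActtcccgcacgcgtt
Chac1: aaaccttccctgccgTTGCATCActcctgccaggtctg
Herpud1: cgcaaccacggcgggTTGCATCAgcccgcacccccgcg
The Asns stretch is chr6:7693210-7693247 on the minus strand, 38 to 1 bases before the start; that of Chac1 is chr2:119351034-119351071 on the plus strand, 208 to 171 bases before; that of Herpud1 is chr8:94386302-94386339 on the plus strand, 127 to 90 bases before. Trib3 held a match 14 to 21 bases after its start position. In all 4 of the 36 genes with a window held the motif (11.1%), against 3.97% of 32851 windows and 4.51% of 27025 genes. Of these 4, Asns and Trib3 rose and Chac1 and Herpud1 did not pass the test. The 36 genes were listed as known genes of these responses, so the share describes the choice of genes. The genes Atf6, Hspa13, Hyou1 and Manf had no window in the table used.

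The remaining ATF4 targets did not pass. Chac1, a glutathione-degrading enzyme, had signals of 124 and 391 in adult WT and 440 and 498 in Klf4CN, a difference of 1.02 (limma adjusted p = 0.197) that rested on which WT sample was used: it was 0.25 without WT sample 1 (limma adjusted p = 0.784) and 1.79 without WT sample 2 (limma adjusted p = 0.0357). Sesn2, a stress-induced inhibitor of TORC1 signalling, had 101 and 344 in WT and 108 and 62.7 in Klf4CN, and overlapped; its difference was -1.05 (limma adjusted p = 0.117), with -1.86 without WT sample 1 (limma adjusted p = 0.0058) and -0.24 without WT sample 2 (limma adjusted p = 0.656). Another, dimmer probe set of Sesn2 gave 0.89. Ppp1r15a, whose product GADD34 guides the phosphatase that dephosphorylates eIF2, had 1486 and 1541 in WT and 2399 and 1756 in Klf4CN, a difference of 0.44 (limma adjusted p = 0.215).

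The serine and one-carbon genes among the ATF4 targets did not pass the test. Phgdh, the first enzyme of serine synthesis, had 13920 and 12380 in adult WT and 10930 and 10480 in Klf4CN. Its groups did not overlap, and the difference of -0.29 missed the test (limma adjusted p = 0.082). Psat1, the next enzyme of the pathway, differed by 0.23, with another probe set at -0.31. Psph, the last enzyme, differed by 0.07. The mitochondrial folate enzymes Shmt2 and Mthfd2 differed by -0.29 and 0.03, and for Shmt2 the probe sets disagreed in sign, between -0.29 and 0.85. Limma adjusted p-values of these last 4 genes ran from 0.18 to 0.919.

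**Figure D2:**
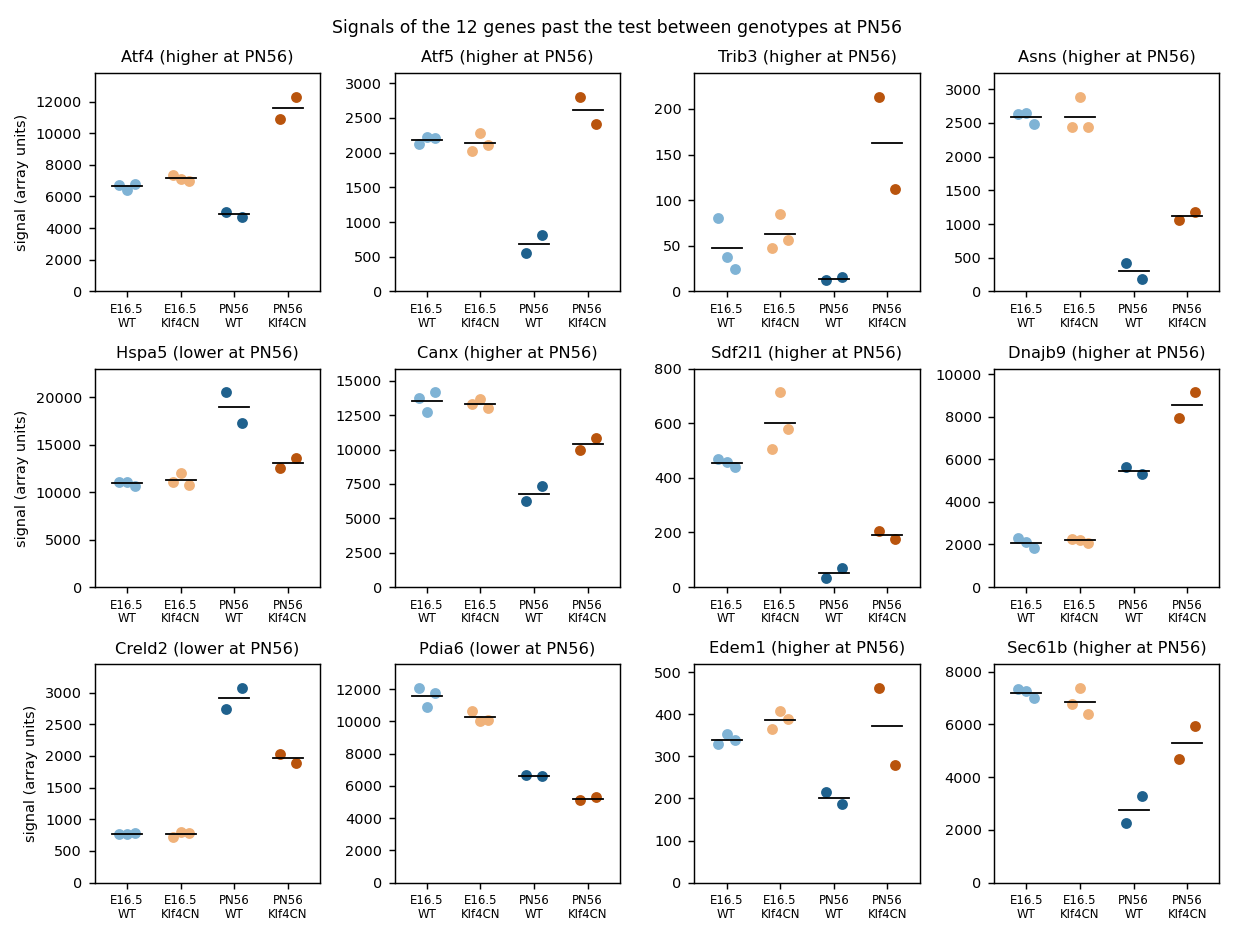
Signal in array units of each sample for the 12 genes past the test between genotypes at PN56, by group, with bars at group means; each axis starts at 0. For Atf4, Atf5, Trib3, Asns, Canx, Sdf2l1, Edem1 and Sec61b both adult WT points lie below all others, and for Hspa5 and Creld2 above all others.

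Of the 12 ER chaperones 3 were higher and 2 lower at PN56, with a median difference of 0.13. Among all genes tested 6.04% were higher and 6.98% lower, and among those with a mean signal of at least 5000, 17.9% and 13.3%. Hspa5 encodes BiP, the main Hsp70 chaperone of the ER. Its signal was 20540 and 17340 in adult WT and 12510 and 13560 in adult Klf4CN lenses, while all 6 embryonic samples lay between 10670 and 11980. Adult WT was above every other sample. Hspa5 fell by 0.53 ± 0.11 on the log2 scale (SE; limma adjusted p = 0.0066), 1.45-fold, and its other probe sets gave -0.47 (limma adjusted p = 0.0551) and -0.17. Without WT sample 1 at PN56 the Hspa5 difference was -0.41 (limma adjusted p = 0.0514).

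Creld2, a secreted ER stress protein with disulphide isomerase activity, had 2747 and 3078 in adult WT and 2023 and 1896 in Klf4CN lenses, above an embryonic range of 726 to 801. It fell by 0.57 ± 0.12 (SE; limma adjusted p = 0.0117), 1.48-fold. The call was lost without WT sample 2 (-0.48, limma adjusted p = 0.0591) and without Klf4CN sample 2 (-0.52, limma adjusted p = 0.059). Among the 4 disulphide isomerases, enzymes that form and rearrange disulphide bonds in the ER, Pdia6 passed as lower and 0 as higher. The class median was -0.21. Over all genes tested 6.98% were lower and 6.04% higher, and 13.3% and 17.9% of those with a mean signal of at least 5000, as Pdia6 has. Pdia6 had 6664 and 6585 in adult WT and 5118 and 5286 in Klf4CN. It fell by 0.35 ± 0.09 (SE; limma adjusted p = 0.0276), and lost the call when any of the 4 PN56 arrays was left out (limma adjusted p from 0.0603 to 0.0932). The falls of Hspa5, Creld2 and Pdia6 also depended on scaling: with each array centred on its median, which adds 0.13 to every genotype difference at PN56, they were -0.41, -0.44 and -0.22 and none passed (limma adjusted p = 0.102, 0.118 and 0.354). That centring moved the share of higher genes among all calls at PN56 from 46.4% to 71.9%.

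Canx, Sdf2l1 and Dnajb9 rose. Canx encodes calnexin, the membrane lectin chaperone of newly made glycoproteins. Its signal was 6243 and 7348 in adult WT and 9971 and 10820 in adult Klf4CN, below an embryonic range of 12720 to 14180. The difference was 0.62 ± 0.10 (SE; limma adjusted p = 0.0029), and its other probe sets gave 0.86 (limma adjusted p = 0.0497) and 0.10. Its soluble counterpart calreticulin, Calr, lay on the other side of 0, with 13610 and 11440 in WT and 9817 and 10320 in Klf4CN; the groups did not overlap and the difference of -0.31 missed the test (limma adjusted p = 0.0599).

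Sdf2l1, a cochaperone of the BiP cycle, had 34.2 and 68.6 in adult WT and 206 and 177 in adult Klf4CN, all below the embryonic range of 441 to 714. The difference was 1.67 ± 0.27 (SE; limma adjusted p = 0.0025), a fold of 3.18. The WT signal of 34.2 was under the filter level of 45.1, so this fold is not dependable. The call of Sdf2l1 was lost in the fit on the 2 compared groups. Dnajb9, which encodes ERdj4, a J protein that brings BiP to IRE1 and to misfolded proteins, had 5624 and 5289 in adult WT and 7968 and 9160 in adult Klf4CN, above the embryonic range of 1842 to 2285. The difference was 0.65 ± 0.12 (SE; limma adjusted p = 0.0056). BiP and its J protein ERdj4 thus differed between genotypes with opposite signs.

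The other chaperones and isomerases did not pass at PN56. The ER Hsp90 Hsp90b1 differed by 0.15, the Hsp70 family member Hspa13 by -0.16, the J proteins Dnajb11 and Dnajc3 by 0.18 and 0.31, the nucleotide exchange factor Hyou1 by -0.47 and the secreted factor Manf by 0.11. For Dnajc3, which encodes the cochaperone and PERK inhibitor P58IPK, 1 of the dimmer probe sets passed by itself (0.76, limma adjusted p = 0.0158). For Hyou1 another probe set had the opposite sign (0.96, limma adjusted p = 0.0862). The other probe sets of Hspa13 also had the opposite sign (0.13, 0.46 and 0.66), none past the test. The isomerases Pdia3, Pdia4 and P4hb differed by -0.07, -0.36 and -0.03.

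The ER stress response element, to which ATF6 binds together with NF-Y, was searched as CCAAT and CCACG with 9 bases between them, on both strands of the same windows. It was found in 8 of 36 genes (22.2%), against 0.119% of 32851 windows and 0.137% of 27025 genes: Calr, Canx, Creld2, Dnajc3, Hsp90b1, which held 2 matches, Hspa5, Pdia6 and Syvn1. These are textbook ER stress genes and were listed as such, so the share describes the choice of genes. The 3 genes that fell and Canx, which rose, all held it, and their stretches are shown for that contrast, with the outer parts of the element in capitals.
Hspa5: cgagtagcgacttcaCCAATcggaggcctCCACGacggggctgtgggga
Creld2: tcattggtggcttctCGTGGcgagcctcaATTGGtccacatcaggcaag
Pdia6: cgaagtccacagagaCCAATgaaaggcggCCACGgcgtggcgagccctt
Canx: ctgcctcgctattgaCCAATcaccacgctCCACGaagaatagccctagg
They lie at chr2:34772010-34772058 (plus strand), chr15:88819505-88819553 (plus), chr12:17266476-17266524 (plus) and chr11:50325785-50325833 (minus), all before the gene's start. The other 4 genes with the element did not pass the test between genotypes at PN56. The unfolded protein response element TGACGTGG was in 0 of 36 genes' windows, against 0.676% of all windows. A match is a description of letters and shows no binding.

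Of the 5 degradation and translocation genes 2 were higher and 0 lower at PN56, beside 6.04% and 6.98% of all genes. Their median difference was 0.41. Sec61b, a subunit of the channel through which proteins enter the ER, had 2248 and 3285 in adult WT and 4672 and 5945 in adult Klf4CN, below an embryonic range of 6392 to 7389. The difference was 0.95 ± 0.16 (SE; limma adjusted p = 0.0032), a fold of 1.93. Edem1, a lectin that directs misfolded glycoproteins to degradation, had 214 and 187 in WT and 464 and 280 in Klf4CN, a difference of 0.80 ± 0.24 (SE; limma adjusted p = 0.0473). This call was lost when any E16.5 array, either WT array or Klf4CN sample 1 at PN56 was left out, the last giving 0.45, and another probe set of Edem1 gave -0.47 (limma adjusted p = 0.547). Syvn1, the ubiquitin ligase HRD1, differed by 0.41, its adaptor Sel1l by -0.20 and Herpud1, an organiser of the same complex, by -0.19; none passed, and the groups did not overlap in any of the 3.

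Several marker and control signals differed between genotypes at PN56, and their part in these results was not tested. The summed signal of 10 lens markers ran from 815900 to 917900 in WT and from 611100 to 625900 in lenses labelled Klf4CN, and 8 of the 10 fell. Of 7 pigment cell genes on the array, summed signals were 6726 to 8436 in WT and 3246 to 3477 in Klf4CN. For 12 macrophage genes they were 2276 to 2545 and 2379 to 4163, with Cd68 (2.74, limma adjusted p = 0.0022) and Tyrobp (2.42, limma adjusted p = 0.00063) higher. The other 10 macrophage genes did not pass, and 6 of them had differences below 0, from -0.37 for Laptm5 to -0.04 for Fcer1g. For 9 photoreceptor genes they were 6142 to 6745 and 4834 to 15930, and for 10 neuronal genes 3118 to 3545 and 2928 to 5964. For 8 mesenchymal genes they were 2474 to 2826 and 1934 to 2245. Pdgfra made up the largest part of the mesenchymal sum, with means of 1747 in WT and 1024 in Klf4CN (-0.77, limma adjusted p = 0.0429). Col1a1 also lay below 0 (-1.04). Col3a1 passed as higher (1.48, limma adjusted p = 0.0396). Lum (1.50), Postn (0.87), Dcn (0.31) and Col1a2 (0.0019) lay above 0 without passing, and Twist1 was not tested. For 5 corneal epithelial genes the summed signals were 11310 to 13420 and 5616 to 6837. Aldh3a1 made up nearly all of the corneal sum, with means of 12030 in WT and 5670 in Klf4CN. Krt15 went the other way, with means of 87.15 and 356.9. The cre hybridisation spike read 72630 to 83850 on WT and 51260 to 53240 on Klf4CN arrays, and the 3' probe set of Actb 79160 to 84170 and 62120 to 62870. The 18S ribosomal RNA probe set of the 5' end read 528 to 2870 on WT and 5700 to 11010 on Klf4CN arrays. At E16.5 that probe set also differed, with 1155 to 2413 on WT and 20900 to 22780 on Klf4CN arrays. Summed signals at E16.5, WT then Klf4CN, were 919 to 2313 and 2256 to 7755 for pigment cell genes, 833 to 5046 and 4153 to 11420 for neuronal genes and 230300 to 271000 and 210600 to 223100 for lens markers. Their part in the comparison of effects between ages was not tested either.

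The genotype effect differed between the ages for 6 of the 40 genes, where 4.75% of all genes tested were called in this interaction. The difference of effects, PN56 minus E16.5, was 1.13 ± 0.12 for Atf4 (SE; limma adjusted p = 0.000571), 1.96 ± 0.21 for Atf5 (limma adjusted p = 0.000537) and 1.94 ± 0.35 for Asns (limma adjusted p = 0.0123). It was 1.02 ± 0.21 for Sec61b (limma adjusted p = 0.0203), 0.64 ± 0.13 for Canx (limma adjusted p = 0.0224) and -0.57 ± 0.14 for Hspa5 (limma adjusted p = 0.0337). With the mean of its probe sets Atf4 did not pass (0.72, limma adjusted p = 0.0819), nor did Asns with no intensity trend (limma adjusted p = 0.0643). Leaving out an array ended the call of Hspa5 in 8 of 10 cases, of Canx in 5 and of Sec61b in 3. The 5 genes higher in the interaction became 3 without E16.5 Klf4CN sample 3, PN56 WT sample 1 or PN56 Klf4CN sample 2, in turn. Sdf2l1 (1.30, limma adjusted p = 0.0593), Dnajb9 (0.57, limma adjusted p = 0.0653), Creld2 (-0.56, limma adjusted p = 0.0705) and Trib3 (2.13, limma adjusted p = 0.105) did not pass, so for these genes the effect at PN56 was not shown to differ from that at E16.5. The median over the 40 genes was 0.17, beside -0.06 over all genes.

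Between E16.5 and PN56 most of the 40 genes changed in at least 1 genotype. In WT 10 rose and 14 fell, where 25.0% of all genes were called higher and 30.7% lower. In lenses labelled Klf4CN 11 rose and 9 fell, against 21.6% and 30.5% of all genes. Age cannot be told apart from preparation and pooling, since the dap poly-A spike read 3125 to 4159 on the E16.5 arrays and 6.5 to 14.5 on the PN56 arrays. Centring each array on its median lowers the age differences by 0.52 in WT and 0.34 in Klf4CN; with it 7 genes rose and 23 fell in WT, and 9 rose and 16 fell in Klf4CN. Among all calls it lowered the share of higher genes from 44.9% to 19.9% in WT and from 41.5% to 22.6% in Klf4CN. The comparisons by age and by genotype share arrays, so their values are given side by side only.

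Herpud1 rose with age in both genotypes. Its signal was 770, 870 and 960 in embryonic WT and 9986 and 10180 in adult WT, a log2 difference of 3.52 ± 0.11 (SE; limma adjusted p = 4.532e-10). In Klf4CN it was 904, 961 and 906 at E16.5 and 9354 and 8310 at PN56, a difference of 3.23. The adult samples were thus far above the embryonic ones in both genotypes. Ddit3 also rose, by 2.02 in WT and 2.51 in Klf4CN, as did Ppp1r15a (1.49 and 2.13), Dnajb9 (1.39 and 1.96), Creld2 (1.89 and 1.33), Manf (1.35 and 1.42) and Xbp1 (1.35 and 1.35). The rises of Mthfd2 (0.83 and 0.77) and Phgdh (0.64 and 0.34) depended on scaling. With arrays centred on the median Mthfd2 was 0.32 in WT and 0.43 in Klf4CN (limma adjusted p = 0.146 and 0.0553), and Phgdh was 0.12 and -0.0076 (limma adjusted p = 0.469 and 0.967). Phgdh also lost its call in Klf4CN without PN56 Klf4CN sample 1 (limma adjusted p = 0.0513).

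Other members fell with age in both genotypes. Pdia4, a disulphide isomerase of the BiP complex, went from 2208, 2550 and 2703 in embryonic WT to 376 and 276 in adult WT, and from 2380, 2974 and 1996 to 268 and 227 in Klf4CN. The ages did not overlap, and the differences were -2.88 and -3.21. Asns changed by -3.14 in WT and -1.20 in Klf4CN, Sdf2l1 by -2.86 and -1.56, Psph by -1.68 and -1.47, Syvn1 by -1.54 and -1.16, Sesn2 by -1.18 and -2.36, Canx by -0.996 and -0.36, Pdia6 by -0.80 and -0.98 and Shmt2 by -0.76 and -1.04. With probe sets averaged per gene, Pdia6 in WT was -0.22, Canx in Klf4CN was -0.25 and Shmt2 was -0.21 in WT and -0.02 in Klf4CN, none past the test (limma adjusted p = 0.361, 0.127, 0.324 and 0.946). Canx in Klf4CN was -0.30 without PN56 Klf4CN sample 1 (limma adjusted p = 0.0527). For Sesn2 the fall in WT came mainly from 1 sample: without WT sample 1 at PN56 it was -0.37 (limma adjusted p = 0.3). Of the 16 ER chaperones and isomerases 4 rose and 5 fell with age in WT, and 3 rose and 4 fell in Klf4CN. Over all genes 25.0% rose and 30.7% fell in WT, and 21.6% and 30.5% in Klf4CN, so these counts were near the all-gene shares. Dnajb9 and Manf were among those higher in the adult, and Sdf2l1 and Pdia4 among those lower.

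Some genes passed with age in 1 genotype. Hspa5 rose in WT by 0.78 (limma adjusted p = 2.249e-05), with 0.21 in Klf4CN (limma adjusted p = 0.0837); with arrays centred on the median the WT value was 0.27 and did not pass (limma adjusted p = 0.1). Atf5 fell in WT by 1.68, with 0.28 in Klf4CN, and Sec61b fell in WT 2.64-fold, with a log2 difference of -0.37 in Klf4CN, neither past the test in Klf4CN. Dnajb11 and Edem1 also fell in WT, by 0.57 and 0.72, with -0.42 and -0.10 in Klf4CN. Dnajb11 lost the call without E16.5 WT sample 1 or PN56 WT sample 2 (limma adjusted p = 0.0539 and 0.0876), and Edem1 lost it without PN56 WT sample 2 (limma adjusted p = 0.0745). Chac1 rose in Klf4CN by 1.64 (limma adjusted p = 0.0086), with 0.02 in WT, and without PN56 Klf4CN sample 2 it was 1.55 (limma adjusted p = 0.0566). Atf4 changed in opposite directions, by -0.44 in WT (limma adjusted p = 0.001) and 0.69 in Klf4CN (limma adjusted p = 3.324e-05), but with the mean of its probe sets the WT value was -0.12 and did not pass (limma adjusted p = 0.513). Of the genes in this paragraph, the change differed between genotypes by the interaction test for Hspa5, Atf5, Sec61b and Atf4, and not for Dnajb11, Edem1 or Chac1.

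**Figure D3:**
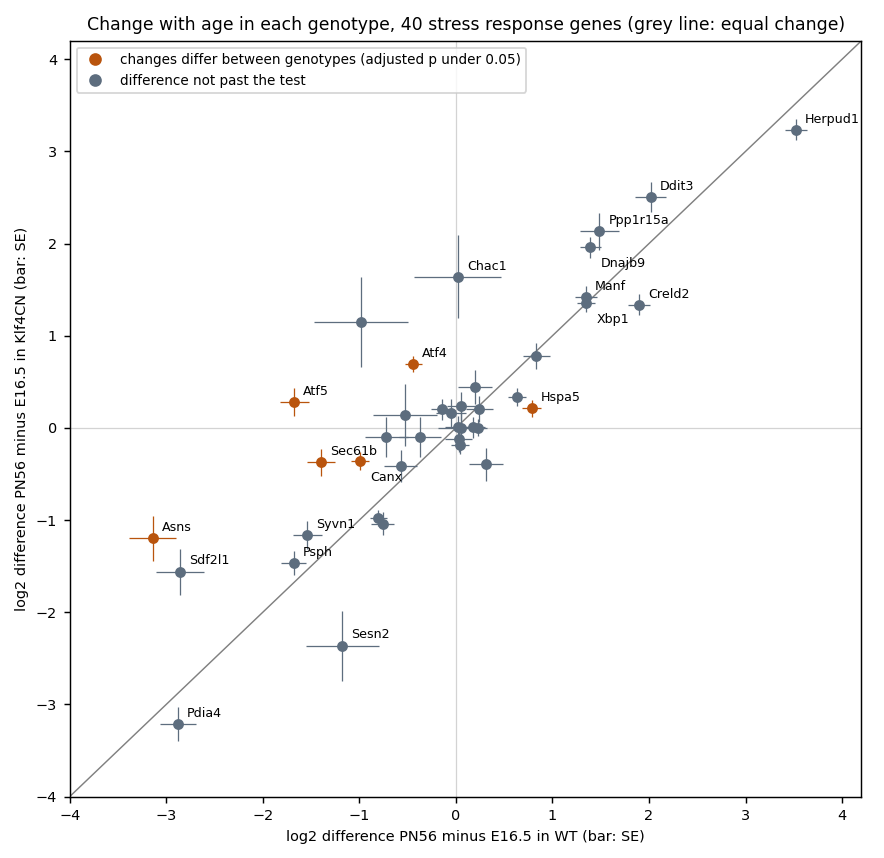
Log2 difference PN56 minus E16.5 in WT (horizontal axis) against that in Klf4CN (vertical axis) for the 40 genes, with SE bars and a line of equal change; orange points are the 6 genes whose change differed between genotypes. Herpud1 lies at 3.52 and 3.23 near the line, while Atf4 (-0.44 and 0.69), Atf5 (-1.68 and 0.28) and Asns (-3.14 and -1.20) lie above it and Hspa5 (0.78 and 0.21) below it.

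Further genes of the integrated stress response were read from a list of 38, of which 35 were on the array and 34 above the filter. At PN56 5 of 34 were higher and 1 was lower in lenses labelled Klf4CN, with a median difference of 0.17; over all genes tested 6.04% were higher and 6.98% lower, with a median of -0.06. At E16.5 0 of 34 passed by limma, where 0.00744% of all genes did, and 1 had an unadjusted p under 0.05. Eif4ebp1, which encodes the translation repressor 4E-BP1 and is an ATF4 target, had 508 and 603 in adult WT and 1159 and 1526 in Klf4CN, a difference of 1.24 (limma adjusted p = 0.000382). Aldh1l2, a mitochondrial folate enzyme, had 132 and 101 in WT and 320 and 312 in Klf4CN, a difference of 1.33 (limma adjusted p = 0.0138). The groups did not overlap for either gene.

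The other calls in that list were smaller or opposite. Ppp1r15b, the constitutive partner of the eIF2 phosphatase, differed by 0.61 and the tRNA synthetases Iars and Nars by 0.51 and 0.45. Eif2b3, a subunit of the exchange factor on which phosphorylated eIF2 acts, had 2250 and 1514 in WT and 1023 and 826 in Klf4CN and fell by 0.99 (limma adjusted p = 0.0066). Of 13 further ATF4 targets tested, 2 were higher and 0 lower (median 0.32), and of 12 tRNA synthetases 2 were higher and 0 lower (median 0.19). With age, 11 of the 12 synthetases fell in WT and 10 in Klf4CN, where 30.7% and 30.5% of all genes fell.

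A list of 65 further ER genes, 61 of them tested, gave 8 higher and 7 lower at PN56, beside 6.04% and 6.98% of all genes, and its median of -0.07 was close to the -0.06 over all genes. At E16.5 0 of 61 passed by limma, and 3 had an unadjusted p under 0.05. Of 14 translocation genes tested 4 were higher and 0 lower. Among all genes with a mean signal of at least 5000, 17.9% were higher and 13.3% lower. The 4 were Sec63, a partner of the Sec61 channel, by 0.81, and the signal peptidase subunits Spcs1 and Spcs2 by 0.70 and 0.64. Ssr4, by 0.49, is named here to complete the count. The differences of 4 of the 14 lay below 0, among them Sec61a1, with means of 10880 in WT and 8873 in Klf4CN. Spcs2 had 4334 and 4290 in adult WT and 6488 and 6995 in Klf4CN. Txndc12, an ER thioredoxin-like protein, was lower, with 13610 and 13870 in WT and 4750 and 5907 in Klf4CN, a fall of 1.37 (limma adjusted p = 0.000245). Among degradation genes Derl1, a channel component, fell by 0.56 and Selenos, a selenoprotein of the same machinery, rose by 0.61.

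**Figure D4:**
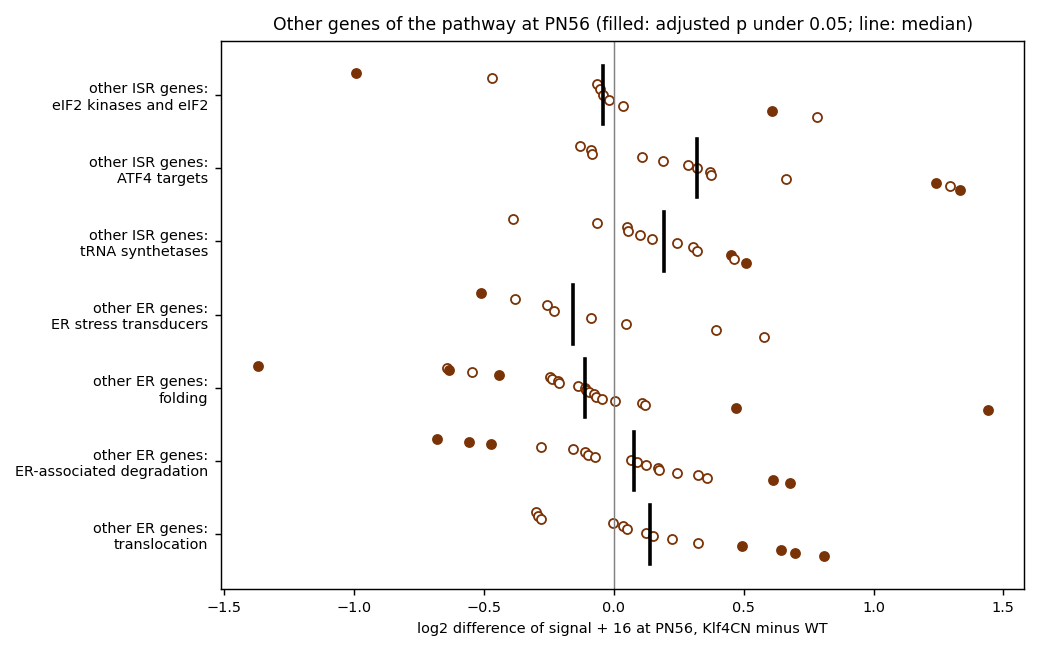
Log2 difference of signal + 16 at PN56, Klf4CN minus WT, for each tested gene of the further integrated stress response and ER lists, by role; filled points have a limma adjusted p under 0.05 and vertical bars are medians. Medians run from -0.16 for ER stress transducers to 0.32 for the further ATF4 targets, and the 4 filled of 14 translocation genes lie above 0.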

How the data were processed

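The data were 10 arrays, each with 1 linear intensity per probe set, deposited by the authors and made with GCOS 1.4, per the submitters' processing notes. Their other steps were not given in the sources used here. Of 45101 probe sets 34945 carried a single gene symbol, and names followed RefSeq (GRCm38.p6). A gene's brightest probe set was tested as log2(signal + 16) where that mean reached the 40th percentile over probe sets (45.1 in signal). All 10 arrays entered 1 limma fit (version 3.58.1, R 4.3.3) with 4 group means and an intensity trend, tested on simulated data; tests were two-sided with Benjamini-Hochberg adjustment. Depth has no meaning for arrays; their number limits the precision. The 40 genes, all of which are named, and the further lists, from which up to 6 called genes of smallest p at PN56 are named, were chosen with earlier results of these data known. Alternatives covered scaling, offset, filter, probe set choice, spread, replicate block and each array left out.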

Additional observations from a re-analysis of the deposited data

Results flagged for a closer look

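For 6 of the 40 genes the effect of the genotype differed between the ages by the interaction test of the limma fit. The difference of effects, PN56 minus E16.5, was 1.13 for Atf4, 1.96 for Atf5, 1.94 for Asns, 0.64 for Canx and 1.02 for Sec61b on the log2 scale. It was -0.57 for Hspa5. Of these calls, only that of Atf5 held in every alternative run.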

How the results depend on the processing

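The calls of Asns, Atf4, Atf5, Canx, Dnajb9 and Sec61b at PN56 held in every alternative run, and none of the 12 calls changed sign. The 3 genes called lower at PN56 became 0 with arrays centred on the median or a fit on the 2 compared groups, and 1 with averaged probe sets or array weights; leaving out an array gave 1 (without PN56 Klf4CN sample 2) to 3. In the interaction 5 higher became 3 with the mean of probe sets and 2 with no intensity trend, and ran from 3 to 7 without 1 array. Its 1 lower call became 0 with centring, no filter, the mean of probe sets, no trend or array weights, and 0 to 1 without 1 array. With age, genes called higher were 16 in WT and 18 in Klf4CN with the mean of probe sets, and genes called lower were 23 and 16 with centring. Among genes called in the main fit or the alternative, centring turned the sign of Calr (-0.47), Cebpg (-0.46), Hsp90b1 (-0.50) and Pdia3 (-0.49) in WT. In Klf4CN it turned Hsp90b1 (-0.34), Hspa13 (-0.34) and Phgdh (-0.0076). The mean of probe sets turned Dnajc3 in WT (0.45). Genes called in neither run also changed sign with centring and are not listed. The cause was not tested. Of all genes at PN56, 1750 were called, and 637 with array weights, 1165 with no trend, 1073 with the mean of probe sets, 806 in the fit on 2 groups, 1079 without WT sample 1 and 1061 without Klf4CN sample 2.

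Samples of the genotypes share replicate numbers. Deviations of same-numbered samples correlated at 0.27, 0.24 and 0.05 at E16.5, and those of differently numbered samples at -0.28 to 0.06. At PN56 the values were 0.04 and -0.04, equal in size because each group has 2 arrays, so they cannot show pairing. Whether the numbers pair the samples was not settled, and the main fit left them unpaired. The replicate block shares each number across the ages. With it 8 genes were higher and 3 lower at PN56 (Edem1 was lost), 0 passed at E16.5, and 5 and 1 passed in the interaction.

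With 2 arrays per group at PN56, a single array decided the calls of Creld2, Edem1, Hspa5, Pdia6 and Trib3. Age, preparation and pooling were tied. Signals near background, such as those of Trib3 in adult WT, have no dependable fold.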
